A study of Mus musculus with 5 samples.

Results

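The genes described here are 5 ligands of the epidermal growth factor (EGF) family (*Areg*, *Ereg*, *Hbegf*, *Tgfa* and *Btc*), the 4 ERBB receptors (*Egfr*, *Erbb2*, *Erbb3* and *Erbb4*) and the receptor adaptor *Grb7*. They were taken by symbol from the gene lists of the count matrices, and all 10 were present among 31053 genes. Of these, 9 had enough counts to be tested for a treatment difference in epithelial-like tumor cells. *Ereg*, with 3 unique molecular identifiers (UMIs, each marking 1 captured transcript) in 13832 epithelial-like cells, was too low to be tested.

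The cells came from mammary tumors of MMTV-PyMT mice on the FVB/N background, in which the mouse mammary tumor virus promoter drives the polyoma virus middle T oncogene in mammary epithelium, so that every mouse, control mice included, carried the transgene. From an age of 7 weeks the mice were injected i.p. with 5 mg/kg antibody 2 times a week for 6 weeks. The antibody was B20-4.1.1, which neutralizes VEGF-A, or an isotype control, IgG2a. From isotype-treated mice 6 tumors and from B20-4.1.1–treated mice 9 tumors were dissociated, sorted for live cells, marked with lipid-linked oligonucleotides and pooled by 3 before droplet capture, giving 2 isotype pools and 3 B20-4.1.1 pools for 3′ single-cell RNA sequencing. Whether each tumor came from a mouse of its own is not given in the sources used here, so p-values measure the spread between these tumors.

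EGF-family ligands are made as membrane-anchored precursors and released by metalloproteases, mainly of the ADAM family. They bind EGFR, and some of them ERBB4, and the receptors then pair and signal through RAS-ERK and PI3K-AKT. ERBB2 has no known ligand and acts as a partner for the others, and ERBB3 has little kinase activity of its own and binds neuregulins. In the normal mammary gland, amphiregulin (*Areg*) is the EGFR ligand that estrogen induces in hormone receptor–positive luminal cells to drive growth of the ducts. ERBB4 takes part in differentiation of the milk-producing alveoli.

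*Areg*, *Ereg*, *Epgn* and *Btc* lie in 1 gene cluster on mouse chromosome 5, with *Areg* at chr5:91139599-91148432 on the plus strand (mm10) and *Btc* starting 208829 bases past its end, on the minus strand. *Areg* was the ligand whose counts were the most concentrated in few cells and the most uneven among tumors, so the 250 bases before its start are shown, from RefSeq in mm10, chr5:91139349-91139598, plus strand, 5′ to 3′. Capitals mark a full cAMP response element (TGACGTCA, which reads the same on both strands), beginning 61 bases before the start, and a TATA box (TATAAA), beginning 31 bases before it.
Areg: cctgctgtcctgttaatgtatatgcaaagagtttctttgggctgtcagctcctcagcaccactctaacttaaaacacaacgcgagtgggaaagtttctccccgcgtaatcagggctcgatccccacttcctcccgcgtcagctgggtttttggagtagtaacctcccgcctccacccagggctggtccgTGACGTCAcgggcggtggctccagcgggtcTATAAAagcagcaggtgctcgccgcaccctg
Both motifs were searched on both strands of the 250 bases before the start of 32851 RefSeq promoters. TGACGTCA was present in 1.55% of them and TATAAA in 12.4%. Promoter sequence was matched for 6 of the 10 genes, and among these *Areg* was the 1 gene with either motif. The core letters of a hypoxia response element (ACGTG or GCGTG) were present in 38.6% of all promoters, and among the 6 in those of *Tgfa* and *Btc*. A match of letters describes the sequence and does not show that a factor binds there.

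The matrices held 30340 cells and 198806160 gene UMIs, between 4014509 and 23726246 per tumor, of which 19533 cells passed the limits on UMIs (at least 2500) and on mitochondrial UMIs (20% or less), between 511 and 2341 per tumor. In each tumor, 84.3% to 97.6% of the multiplexing UMIs belonged to its own oligonucleotides. No barcode was shared by tumors of 1 pool, and 94 barcodes occurred in more than 1 pool. Cells were classed by marker genes, none of which is among the genes described. A class needed at least 3 of its 10 markers, and no second class with more than 50% as many. Epithelial-like cells numbered 13832 (70.8%), T-like cells 2709 and macrophage-like cells 1501, with 179 B-like, 102 neutrophil-like, 63 fibroblast-like, 48 dendritic-like and 19 endothelial-like cells. Epithelial-like cells carried a mean epithelial marker in 77.0% of cells and a mean marker of each other class in at most 4.12%. Each pool held tumors of 1 treatment, so the pool and the treatment cannot be told apart.

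The 2 isotype pools stood apart from each other. For *Tgfa*, *Btc*, *Egfr*, *Erbb2*, *Erbb3*, *Erbb4* and *Grb7*, all 3 tumors of isotype pool 1 lay above all 3 tumors of isotype pool 2 in epithelial-like cells. For *Egfr* the 3 tumors of pool 1 had 0.437 to 0.484 UMIs per 10000 and those of pool 2 had 0.228 to 0.278. Each treatment difference below is therefore given also without isotype pool 1 where this changed it. *Areg* and *Hbegf* did not separate the isotype pools.

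Treatment differences in epithelial-like cells were tested on UMIs summed per tumor, 6 isotype against 9 B20-4.1.1 tumors, with the tumor as the replicate. Of the 9 genes tested, *Grb7* and *Hbegf* were higher and *Erbb4* was lower after B20-4.1.1 (edgeR quasi-likelihood test, Benjamini-Hochberg adjusted over 12329 genes, threshold 0.05). In the same test 1808 of 12329 genes, or 14.7%, passed in either direction. The 9 genes had a median log2 fold change of 0.10, against a median of -0.0052 over all genes tested.

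**Figure D1:**
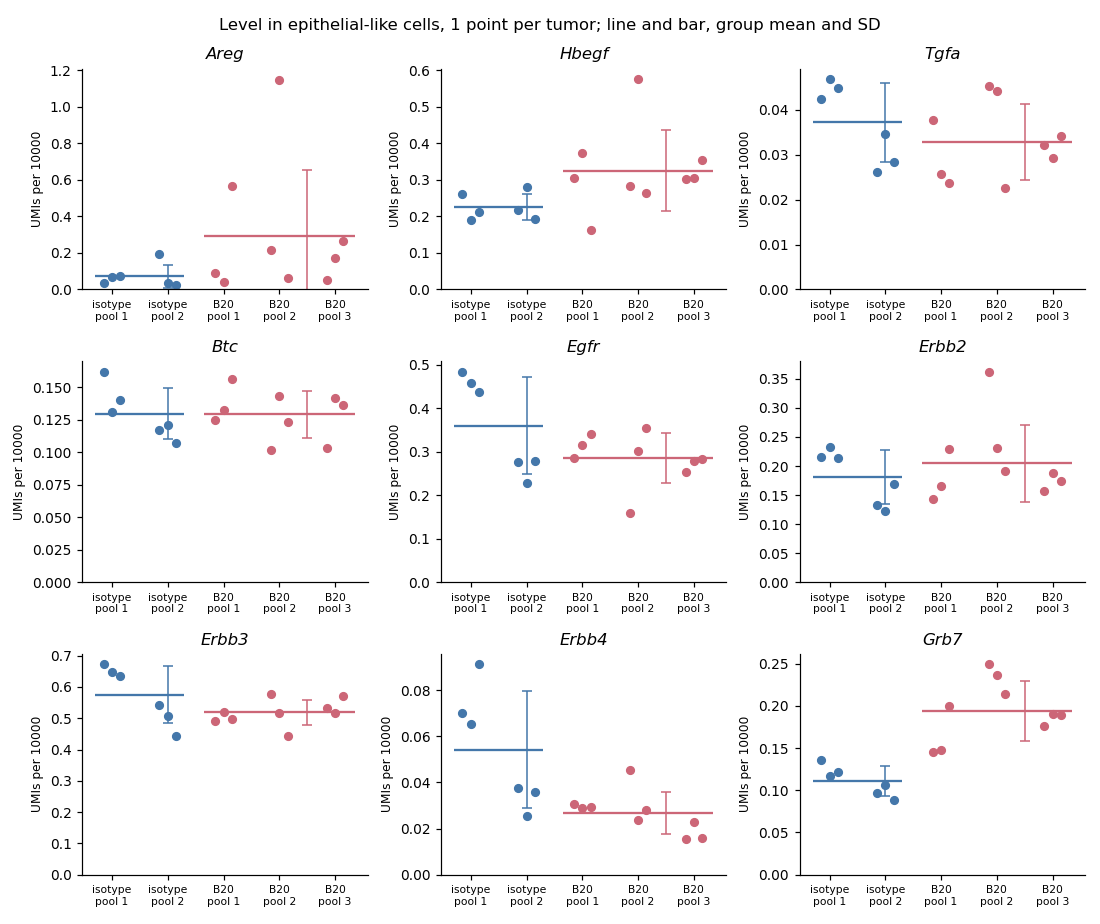
Level of each gene in epithelial-like cells (UMIs per 10000 gene UMIs, vertical axis from 0), with 1 point per tumor in columns by pool, and the mean and SD of each treatment group as line and bar. Of the genes shown, *Grb7* is the 1 whose groups do not overlap (isotype tumors up to 0.136, B20-4.1.1 tumors from 0.145). How many of all genes do not overlap is not given here. For *Areg* 1 B20-4.1.1 tumor stands above all others, at 1.15.

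Among the ligands, *Areg* had the widest spread. Its level in epithelial-like cells of isotype tumors was 0.0242 at the lowest, 0.0533 at the median and 0.192 at the highest, in UMIs per 10000. In B20-4.1.1 tumors the lowest was 0.0416, the median 0.171 and the highest 1.15. The groups overlapped, with 4 of 9 B20-4.1.1 tumors above the highest isotype tumor. The log2 fold change was 2.06 with an SE of 0.70 and did not pass the threshold (adjusted p = 0.0544). Without tumor 2 of B20-4.1.1 pool 2, the highest, it was 1.32 with an adjusted p of 0.143, and without isotype pool 2 it was 2.46 and passed at 0.0449.

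*Hbegf*, heparin-binding EGF-like growth factor, had levels of 0.191 at the lowest, 0.215 at the median and 0.281 at the highest in isotype tumors. In B20-4.1.1 tumors the lowest level was 0.162, the median 0.305 and the highest 0.576. Of the 9 B20-4.1.1 tumors, 7 lay above the highest isotype tumor and 1 below the lowest. *Hbegf* rose by 0.64 on the log2 scale (SE 0.19, adjusted p = 0.0335). The share of cells with a UMI of *Hbegf* was 9.35% ± 1.81 (SD, n = 6) without and 12.7% ± 3.12 (SD, n = 9) with B20-4.1.1. With every cell thinned to 2500 UMIs these shares were 3.99% ± 0.849 and 5.22% ± 1.46. The call did not hold without isotype pool 1 (0.51, adjusted p = 0.254), without B20-4.1.1 pool 2 (0.53, adjusted p = 0.0666), without B20-4.1.1 pool 3 (0.64, adjusted p = 0.0880) or without tumor 2 of B20-4.1.1 pool 2 (0.49, adjusted p = 0.0514). It was also lost when the pool was fitted as a random block in limma (0.88, adjusted p = 0.176) and with counts summed per pool (0.83, adjusted p = 0.391).

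The other 2 ligands tested, *Tgfa* and *Btc*, both ligands of EGFR, did not pass. *Tgfa* was at 0.0372 ± 0.00873 UMIs per 10000 in isotype tumors (SD, n = 6) and at 0.0327 ± 0.00842 in B20-4.1.1 tumors (SD, n = 9), with a log2 fold change of -0.081 (SE 0.25, adjusted p = 0.859). *Btc* was at 0.130 ± 0.0196 and 0.129 ± 0.0181, with a log2 fold change of 0.10 (SE 0.095, adjusted p = 0.485). The *Tgfa* value turned positive, at 0.12, without isotype pool 1. The 3 *Ereg* UMIs lay in 3 different cells.

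Among the receptors, *Erbb4* (chr1:68032186-69108059, minus strand, mm10) was the 1 that passed. Isotype tumors had 0.0254 UMIs per 10000 at the lowest, 0.0513 at the median and 0.0913 at the highest. B20-4.1.1 tumors had 0.0153 at the lowest, 0.0281 at the median and 0.0453 at the highest. All 9 lay below the isotype mean, and 4 of them below the lowest isotype tumor. *Erbb4* fell by 1.02 on the log2 scale (SE 0.24, adjusted p = 0.0118). Its mean was 0.0756 in isotype pool 1 and 0.0329 in isotype pool 2, close to the 0.0296 and 0.0323 of B20-4.1.1 pools 1 and 2. Without isotype pool 1 the log2 fold change was -0.46 and the call was lost (adjusted p = 0.299), as it was without B20-4.1.1 pool 3, whose mean was 0.0180 (-0.79, adjusted p = 0.0786). It was also lost when the pool was fitted as a random block (adjusted p = 0.148) and with counts summed per pool (adjusted p = 0.457), at -1.05 in each.

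*Egfr* (chr11:16752203-16918158, plus strand, mm10) had levels from 0.228 to 0.484 with a median of 0.357 in isotype tumors, and from 0.159 to 0.354 with a median of 0.286 in B20-4.1.1 tumors. All 9 B20-4.1.1 tumors lay below the isotype mean of 0.360, but the groups overlapped. The log2 fold change was -0.20 (SE 0.14, adjusted p = 0.327). Its direction rested on the isotype pools, at 0.13 (adjusted p = 0.711) without pool 1 and at -0.46 without pool 2, where it passed (adjusted p = 0.00632).

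*Erbb2* was at 0.181 ± 0.0463 UMIs per 10000 in isotype tumors (SD, n = 6) and at 0.205 ± 0.0664 in B20-4.1.1 tumors (SD, n = 9). Its log2 fold change was 0.19 (SE 0.15, adjusted p = 0.410). *Erbb3* (chr10:128567523-128589652, minus strand, mm10) was at 0.575 ± 0.0913 and 0.519 ± 0.0408, with a log2 fold change of -0.055 (SE 0.11, adjusted p = 0.763). Neither gene passed the threshold. Without isotype pool 1 their values were 0.40 and 0.033, and neither passed. At least 1 UMI of any of the 4 receptors was found in 57.3% ± 6.35 of epithelial-like cells in isotype tumors and in 57.3% ± 4.48 in B20-4.1.1 tumors. With every cell thinned to 2500 UMIs these shares were 25.4% ± 5.10 and 22.8% ± 1.96, which were not tested.

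*Grb7* encodes an SH2-domain adaptor that binds phosphorylated ERBB2 and other receptors. It was the gene of the 10 with the lowest adjusted p in epithelial-like cells. Its levels were 0.0891 at the lowest, 0.112 at the median and 0.136 at the highest in isotype tumors. In B20-4.1.1 tumors they were 0.145 at the lowest, 0.191 at the median and 0.249 at the highest. The groups did not overlap, but the share of all genes tested without overlap is not given here. *Grb7* rose by 0.86 on the log2 scale, or 1.82-fold (SE 0.11, adjusted p = 0.000439). Cells with a UMI of *Grb7* made up 9.02% ± 1.11 (SD, n = 6) without and 17.4% ± 4.20 (SD, n = 9) with B20-4.1.1. After thinning to 2500 UMIs per cell these shares were 2.84% ± 0.494 and 4.83% ± 0.993. The rise was 0.93 without isotype pool 1 (adjusted p = 0.00987) and passed with the pool as a random block (adjusted p = 0.0465). It did not pass with counts summed per pool (adjusted p = 0.373), a comparison of 2 against 3 sums in which 0 genes passed in edgeR, although 1349 of 14046 had an unadjusted p under 0.05, 4 of the genes described among them.

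**Figure D2:**
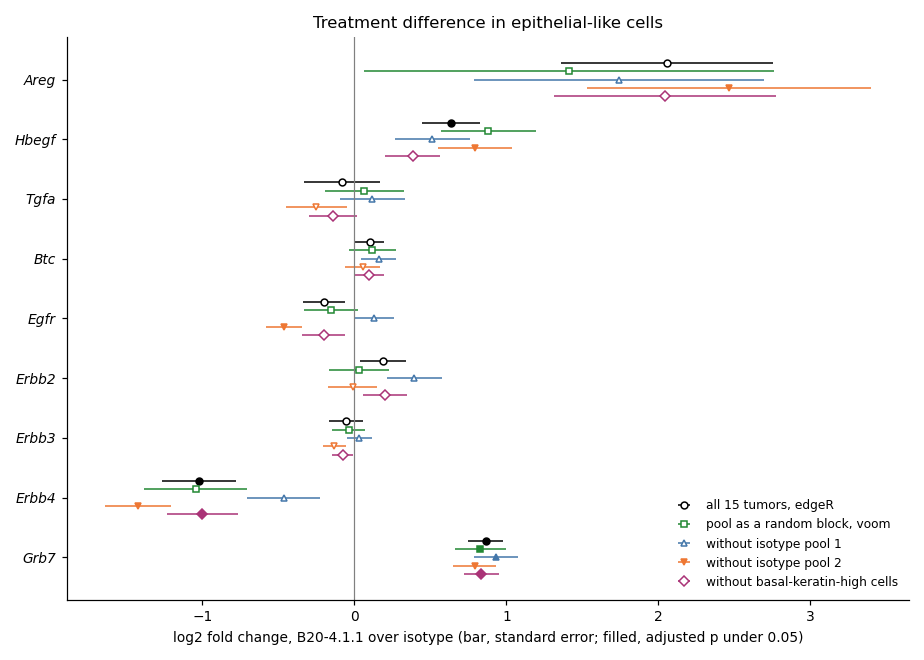
Log2 fold change of B20-4.1.1 over isotype in epithelial-like cells (horizontal axis), with the standard error as bar, for the 9 genes tested. Each gene is shown for all 15 tumors in edgeR and with the pool as a random block. It is also shown without isotype pool 1, without isotype pool 2 and without the cells high in basal keratins. Filled points have an adjusted p under 0.05. With all 15 tumors in edgeR *Grb7* lies at 0.86, *Hbegf* at 0.64, *Erbb4* at -1.02, and *Areg* at 2.06 with an open point.

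*Grb7* lies beside *Erbb2* on mouse chromosome 11, at chr11:98446394-98455373, starting 8678 bases past the end of *Erbb2* (chr11:98412470-98437716), both on the plus strand in mm10. The human neighbors of the same names are often amplified together in breast cancer. Of 6 other genes of this stretch, 3 had enough counts, and 1 of them, *Stard3*, passed. *Stard3*, a late endosomal cholesterol-binding protein, was at 0.224 ± 0.0205 UMIs per 10000 in isotype tumors (SD, n = 6) and at 0.305 ± 0.0433 in B20-4.1.1 tumors (SD, n = 9), with all 9 above the isotype mean. It rose by 0.51 on the log2 scale (SE 0.10, adjusted p = 0.00454). The call was lost without isotype pool 1 (0.38, adjusted p = 0.0654), with the pool as a random block (0.53, adjusted p = 0.135) and with counts summed per pool (adjusted p = 0.423). *Mien1* and *Pgap3* did not pass, at 0.22 (adjusted p = 0.126) and 0.17 (adjusted p = 0.320). *Erbb2* itself, between them, is given above at 0.19. *Mien1* overlaps *Erbb2* by 9 bases on the opposite strand.

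The other genes of the pathway were read in the same epithelial-like fit, where 7.62% of all genes tested were higher and 7.05% were lower. Of 6 other EGF-family and neuregulin ligands, 4 were tested, 0 were higher and 1 was lower. This was *Egf*, which fell by 1.10 on the log2 scale, from 0.0533 ± 0.0163 UMIs per 10000 in isotype tumors to 0.0211 ± 0.00902 in B20-4.1.1 tumors (SE 0.24, adjusted p = 0.00764). *Epgn*, *Nrg1* and *Nrg2* did not pass. The next list held 6 genes, of sheddases, which cut ligands from the membrane, and of their iRhom partners and *Frmd8*. All were tested and 1 was lower. *Adam17*, the main protease for *Areg*, *Hbegf* and *Tgfa* products, fell by 0.32 (SE 0.097, adjusted p = 0.0340).

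Of 25 adaptors and relays of the RAS-ERK and PI3K pathways, 1 was higher and 1 was lower. *Grb2*, the adaptor that brings SOS to the receptors, rose by 0.40 (SE 0.089, adjusted p = 0.00832), and *Plcg1*, a phospholipase bound by EGFR, fell by 0.46 (SE 0.10, adjusted p = 0.00930). Of 15 feedback inhibitors and turnover factors, 0 were higher and 4 were lower, where 7.05% of all genes were lower. When the pool was fitted as a random block none of the 4 passed in limma, with adjusted p from 0.221 to 0.272, and none passed without isotype pool 1. These were *Spry4*, which fell by 0.94 (SE 0.20, adjusted p = 0.00799), *Lrig3* (fell by 0.57, adjusted p = 0.0334), *Spred1* (fell by 0.54, adjusted p = 0.0173) and the receptor ubiquitin ligase *Cbl* (fell by 0.37, adjusted p = 0.0438). The median log2 fold change of the 15 was -0.073, against -0.0052 over all genes.

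Of 12 genes known to respond to ERK, 2 were higher and 2 were lower. *Plaur*, the urokinase receptor, rose by 2.30 on the log2 scale (SE 0.39, adjusted p = 0.00188) and *Fosl1*, an AP-1 subunit, by 1.53 (SE 0.43, adjusted p = 0.0259). *Etv5*, an ETS factor, fell by 1.05 (SE 0.15, adjusted p = 0.000896) and *Ccnd1*, cyclin D1, by 0.83 (SE 0.20, adjusted p = 0.0128). The list thus had as many calls up as down, with a median of -0.051. With the pool as a random block *Etv5* still passed (adjusted p = 0.0465) and the other pathway genes named here did not. Without isotype pool 1 *Plaur*, *Etv5* and *Grb2* still passed and the others named did not, with *Ccnd1* at -0.17 (adjusted p = 0.525), *Spred1* at -0.16 (0.479) and *Cbl* at -0.051 (0.822). *Adam17* and *Cbl* also failed without any 1 of the B20-4.1.1 pools, *Lrig3* and *Spred1* without pool 2 or 3, and *Fosl1* without pool 1 or 2.

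Of the 3 large classes, the epithelial-like cells held nearly all UMIs of the receptors and of *Grb7*. No gene of the 10 had enough counts in macrophage-like or T-like cells by themselves, so the genes that could be fitted were those high in epithelial-like cells, and the classes are compared here by levels with no test. *Erbb3*, for which 25 UMIs were found in macrophage-like cells, was 23.7 times as high in epithelial-like cells (95% interval 16.0 to 36.6), and *Egfr*, with 11, was 31.9 times as high (17.8 to 64.0). Of *Erbb2* there were 3 UMIs in macrophage-like cells (ratio 64.8, 22.2 to 315) and of *Grb7* there was 1 (ratio 151, 27.1 to 5965). *Erbb4* had 0 UMIs in T-like cells and was at least 17.1-fold higher in epithelial-like cells, taking 3 UMIs over the class as the floor. These intervals and floors cover counting error only.

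RNA released from broken cells can give UMIs in droplets of another class. As a measure of this, the 10 epithelial markers were at a median of 1.74% of their epithelial level in macrophage-like cells, with a range of 1.23% to 6.17%. In T-like cells the median was 2.60% and the range 1.37% to 54.3%, the highest being *Cdh1*. *Egfr* (3.13%) and *Erbb3* (4.23%) in macrophage-like cells lay within this range. *Areg* and *Hbegf* lay above it in macrophage-like cells, at 16.5% and 14.2% of their epithelial level. *Areg* was found there with 27 UMIs in 0.866% of cells, and *Hbegf* with 42 UMIs in 1.67%. In T-like cells *Areg* was at 25.7% of the epithelial level, with 50 UMIs. Median depth per cell was 8700 UMIs for the epithelial-like, 6326 for the macrophage-like and 4091 for the T-like class.

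No treatment test of the 10 genes was therefore made in macrophage-like or T-like cells. The difference between their treatment effects in epithelial-like and macrophage-like cells is not given as a result, and only its ranges under the alternatives are listed below. In these classes, 4 of 6903 and 1 of 6209 genes passed in edgeR, with 658 and 976 at an unadjusted p under 0.05.

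**Figure D3:**
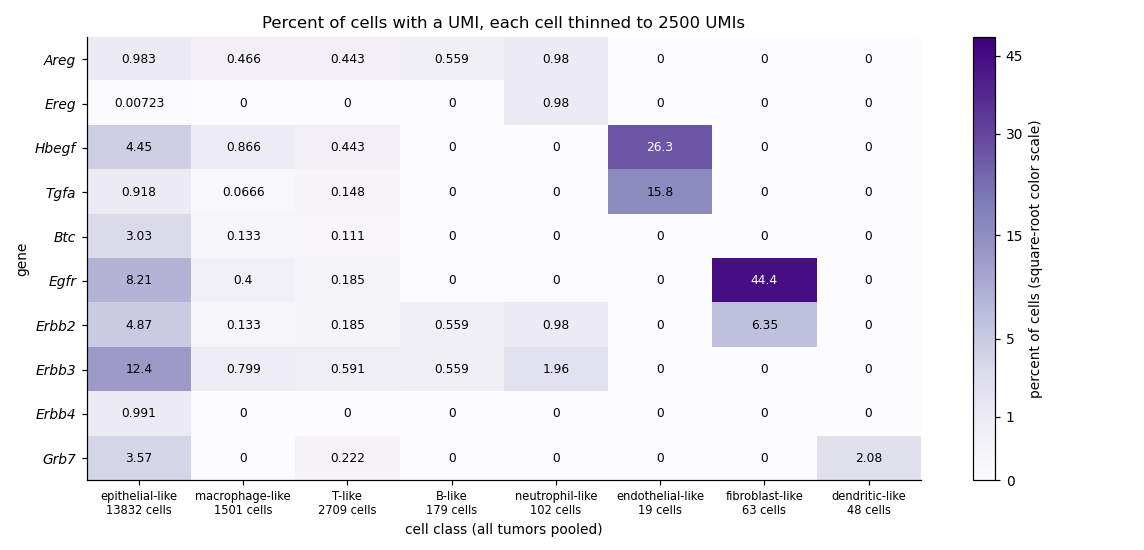
Share of cells with at least 1 UMI of each gene (rows) in each cell class (columns), all tumors pooled and every cell thinned to 2500 UMIs, in percent. *Erbb3*, *Erbb4* and *Grb7* are highest in the epithelial-like column. *Egfr* is in 8.21% of epithelial-like and 44.4% of fibroblast-like cells, and *Erbb2* in 4.87% and 6.35%.

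Outside the epithelium, *Egfr* was highest in fibroblast-like cells. In the 63 such cells 178 UMIs were counted, or 2.80 per 10000 (95% Poisson interval 2.40 to 3.24), against 0.323 in epithelial-like cells pooled in the same way. *Egfr* was higher in fibroblast-like cells in 11 of the 13 tumors that had any, and the other 2 tumors had 1 such cell each, without *Egfr*. *Erbb2* had 11 UMIs in the fibroblast-like cells, or 0.173 per 10000 (0.086 to 0.309), against 0.179 in epithelial-like cells. In the 19 endothelial-like cells, from 10 tumors, *Hbegf* had 13 UMIs, or 1.17 per 10000 (0.625 to 2.01), and *Tgfa* had 4 UMIs, or 0.361 (0.0984 to 0.925). Both were above the epithelial-like levels of 0.273 and 0.0345. These small classes were pooled over tumors and were not tested.

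The epithelial-like cells were not uniform. A subset with summed *Krt5*, *Krt14*, *Krt15* and *Krt17* of at least 3 UMIs per 10000, keratins of basal cells, made up 3.57% ± 0.511 of epithelial-like cells in isotype tumors (range 2.96% to 4.11%, n = 6). In B20-4.1.1 tumors it made up 8.66% ± 2.70 (range 5.08% to 13.3%, n = 9). The groups did not overlap, and the share was not tested. A second subset with at least 4 of 12 cell-cycle markers made up 4.25% ± 1.35 of epithelial-like cells with isotype (SD, n = 6) and 1.92% ± 1.13 with B20-4.1.1 (SD, n = 9). Both subsets were cut from a score per cell, with 484 cells within 1 UMI per 10000 of the keratin limit and 206 cells with 3 or 4 cycling markers. The keratin limit was set after the distribution over cells had been seen.

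Within tumors, *Hbegf* was the gene of the 10 that differed most in basal-keratin-high cells. It was at 0.966 ± 0.524 UMIs per 10000 in these cells and at 0.241 ± 0.0733 in the other epithelial-like cells (SD, n = 13 tumors), and was higher in 13 of 13 tumors. The log2 fold change was 2.05 (SE 0.12, adjusted p = 1.07e-13). *Areg* (0.97, adjusted p = 0.0114), *Grb7* (0.72, adjusted p = 0.000469) and *Erbb3* (0.40, adjusted p = 0.000305) were higher too. Thus 4 of 7 genes tested passed, where 31.3% of all genes did. *Egfr* (0.27, SE 0.11, adjusted p = 0.0681), *Btc* (0.14, SE 0.17) and *Erbb2* (0.060, SE 0.17) did not pass. *Tgfa*, *Erbb4* and *Ereg* were not tested here. *Tgfa* was at 0.0812 UMIs per 10000 against 0.0322 and was higher in 10 of 13 tumors. *Erbb4*, with 8 UMIs in these cells, was at 0.0159 against 0.0389 and was higher in 1 of 13. *Areg* did not pass without B20-4.1.1 pool 1 (0.90, adjusted p = 0.0538) or in DESeq2 (0.83, adjusted p = 0.151). *Erbb3* did not pass with cells thinned to 2500 UMIs (0.36, adjusted p = 0.0761). With a keratin limit of 9 UMIs per 10000 neither *Erbb3* (0.22, adjusted p = 0.608) nor *Grb7* (0.61, adjusted p = 0.207) passed.

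Leaving out the basal-keratin-high cells changed 1 of the treatment calls. The *Hbegf* difference between B20-4.1.1 and isotype was then 0.38 and no longer passed (adjusted p = 0.161), against 0.64 with these cells. *Grb7* and *Erbb4* still passed. Leaving out the cycling cells changed none of the 3 calls.

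In cycling cells the ligands and receptors were mostly lower, over the 9 tumors with enough such cells. *Areg* fell by 2.51 on the log2 scale (SE 0.38, adjusted p = 7.05e-06), and its level was lower in cycling cells in 9 of 9 tumors. The cycling cells of these 9 tumors together held only 10 *Areg* UMIs, and the lowest level of a tumor was 0. With *Areg* found in 1.70% of epithelial-like cells, few cycling cells of a tumor could be positive in any case. The count of 9 of 9 is therefore weak evidence that tumors were alike. *Hbegf* fell by 1.33 (SE 0.19, adjusted p = 3.31e-06), *Grb7* by 0.91, *Egfr* by 0.63, *Btc* by 0.57 and *Erbb3* by 0.36. *Tgfa* was higher, by 1.37 (SE 0.34, adjusted p = 0.00161), in 7 of 9 tumors. Of 8 genes tested, 7 passed, where 49.8% of all genes passed in either direction. *Erbb2* did not pass (-0.35, SE 0.15, adjusted p = 0.0611). Cycling cells were deeper, at a median of 15104 UMIs against 8577. With every cell thinned to 2500 UMIs 3 of 6 genes tested passed, and *Btc* and *Erbb3* were not among them. The share of all genes passing with thinned cells is not given here. Without isotype pool 2 *Tgfa* (0.94, adjusted p = 0.122) and *Btc* (-0.32, adjusted p = 0.427) did not pass, nor did *Btc* without isotype pool 1 (-0.60, adjusted p = 0.0563). With at least 6 cycling markers *Btc* (adjusted p = 0.233), *Erbb3* (0.129) and *Grb7* (0.0634) did not pass and *Erbb2* did (-0.87, adjusted p = 0.00687).

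**Figure D4:**
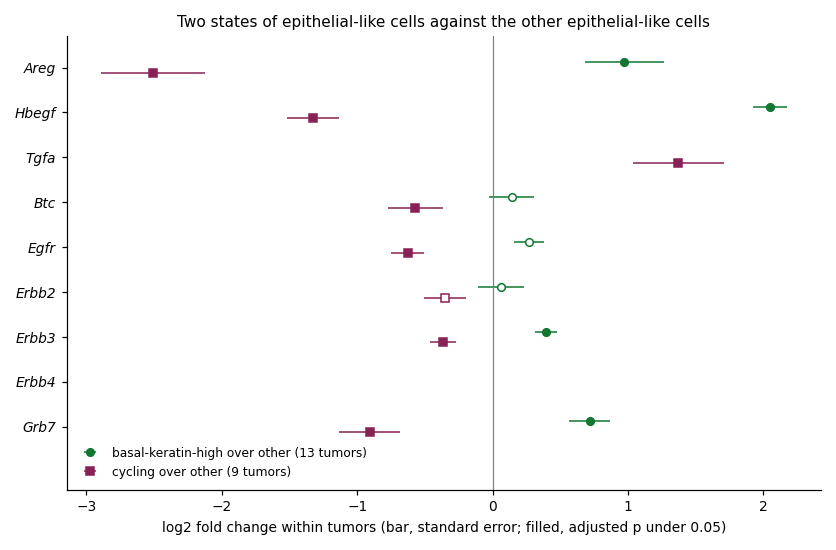
Log2 fold change within tumors (horizontal axis, standard error as bar) of each gene tested in basal-keratin-high cells over 13 tumors and in cycling cells over 9 tumors, each against the other epithelial-like cells, with filled points for an adjusted p under 0.05. *Hbegf* lies at 2.05 in basal-keratin-high and -1.33 in cycling cells, and *Tgfa* is the gene above 0 in cycling cells.

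The pathway lists were counted in the same comparisons, and the genes named from them here were chosen after their values had been seen. In basal-keratin-high cells, where 16.9% of all genes were higher and 14.4% lower, 3 of 6 sheddases and iRhoms were higher and 0 were lower. The 3 were the iRhoms *Rhbdf1* (0.51) and *Rhbdf2* (0.62), which escort ADAM17 to the cell surface, and *Frmd8* (0.66), which stabilizes that complex, as log2 fold changes. Of 25 relays 8 were higher, *Gab2* (0.97) and *Grb2* (0.53) among them, and 2 were lower, *Stat5a* (-0.62) and *Stat5b* (-0.56), which carry the prolactin signal in alveolar cells. Of 10 ERK output genes 3 were higher, *Plaur* (2.31), *Epha4* (0.65) and *Ier3* (0.35), and 3 were lower, *Etv5* (-1.41), *Ccnd1* (-0.63) and *Phlda1* (-0.42). Of 14 feedback inhibitors *Cblb* and *Dusp7* were higher and *Spred1* was lower. *Nrg2*, the 1 other EGF-family ligand tested, was lower (-1.21), as was *Mien1* (-0.37) among the 3 neighbors of *Erbb2* and *Grb7* tested.

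In cycling cells, where 26.4% of all genes were lower and 23.5% higher, 8 of 15 feedback inhibitors were lower and 0 were higher, among them *Lrig1* (-0.78), *Spry1* (-0.79) and *Dusp5* (-0.63). Of 25 relays 10 were lower, led by *Pik3r1* (-1.25), and 4 were higher, *Akt1* (0.29) and *Hras* (0.21) among them. Of 9 ERK output genes tested 5 were lower, *Epha4* (-1.36), *Egr1* (-1.30), *Fos* (-1.25), *Ier3* (-1.14) and *Phlda1* (-0.45), and 3 were higher, *Ccnd1* (1.40), *Etv5* (0.38) and *Myc* (0.32). Among 6 sheddases and iRhoms *Adam17* was higher (0.32) and *Rhbdf2* (-0.79) and *Frmd8* (-0.61) were lower. *Mien1* (-0.58) and *Pgap3* (-0.77) were lower, and 0 of the 2 other ligands tested passed in edgeR. The median log2 fold change was -0.34 for the feedback inhibitors and -0.45 for the ERK output genes, against -0.066 over all genes.

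Between the cell classes these lists were split. Against macrophage-like cells 42.7% of all genes were higher in epithelial-like cells and 36.1% were lower, and against T-like cells 41.5% and 36.2%. Against macrophage-like cells 1 of 6 sheddases and iRhoms was higher in epithelial-like cells, *Rhbdf1* (2.40), and 4 were lower, *Adam17* (-2.10), *Adam9* (-1.45), *Adam10* (-0.92) and *Rhbdf2* (-0.50). Of 25 relays 8 were higher and 12 lower, of 12 feedback inhibitors 5 were higher and 5 lower, and of 9 ERK output genes 4 were higher and 3 lower. *Plaur* was the ERK output gene farthest below, at -4.74. Against T-like cells 8 of 24 relays were higher and 7 lower, and 8 of 14 feedback inhibitors were higher and 3 lower. Of 8 ERK output genes 7 were higher and 1 (*Myc*) lower, and of 6 sheddases and iRhoms 4 were higher and 1 (*Frmd8*) lower. T-like cells by themselves had enough counts for 6 feedback inhibitors, 5 ERK output genes and 3 sheddases and iRhoms. For macrophage-like cells these numbers were 9, 8 and 5. A gene could thus enter through its counts in 1 class, so these counts of genes higher or lower are no support for a direction. *Mien1* and *Pgap3* were higher in epithelial-like cells than in either class, whereas *Stard3* was lower than in macrophage-like (-0.90) and higher than in T-like cells (0.47), and *Nrg2* was higher than in T-like cells (1.92). *Ikzf3*, a lymphocyte factor and another neighbor, was lower than in T-like cells. *Nrg2* had too few counts in T-like cells by themselves, and *Ikzf3* had too few in epithelial-like cells. Neither comparison is therefore support for a direction. No list gene tested for treatment in macrophage-like or T-like cells passed in edgeR. In the test of the difference between the treatment effects in epithelial-like and macrophage-like cells 1 list gene passed, where 0.106% of all genes did, *Plaur* (1.61, SE 0.24, adjusted p = 0.00655).

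*Areg* was concentrated in very few cells. Its 2040 UMIs lay in 235 of 13832 epithelial-like cells (1.70%), and the 89 cells with at least 3 UMIs (Areg-rich cells) held 91.8% of them. The highest single cell had 172 UMIs. *Hbegf* was spread wider, with 3694 UMIs in 10.6% of cells, 63.1% of them in cells with at least 3. *Egfr*, *Erbb2*, *Erbb3* and *Erbb4* were spread thinly, with 4.10% to 26.1% of their UMIs in such cells.

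The *Areg* level of a tumor therefore rested on few cells. In tumor 2 of B20-4.1.1 pool 2 there were 729 UMIs, with 18 Areg-rich cells, or 3.52% of its epithelial-like cells. In tumor 3 of B20-4.1.1 pool 1, 169 of 192 UMIs (88.0%) came from 1 cell. Among isotype tumors, the share of Areg-rich cells ran from 0.106% to 0.845%, and among B20-4.1.1 tumors from 0.242% to 3.52%. The groups overlapped.

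Pooled, the 89 Areg-rich cells carried transcripts of hormone-sensing luminal cells, although each such gene named here was found in a minority of them. They were set beside the 13597 epithelial-like cells with no *Areg* UMI, as a description with no test, since the limit and the gene lists were chosen after values had been seen. *Pgr*, the progesterone receptor, was at 2.02 UMIs per 10000 in Areg-rich cells (1.77 to 2.29) and at 0.0174 in the others. *Wnt4*, a target of progesterone in these cells, was at 2.31 against 0.0268, *Cited1* at 3.46 against 0.0476 and *Foxa1* at 0.870 against 0.0140. *Esr1*, the estrogen receptor, was at 0.552 (0.427 to 0.702) against 0.0397. Alveolar and milk genes were lower: *Elf5*, a factor of alveolar progenitors, was at 0.301 against 2.80, *Lalba* at 1.52 against 21.1 and *Csn2* at 0.234 against 5.81. *Elf5* was lower in Areg-rich cells in 11 of 11 tumors with at least 3 such cells, and *Pgr* was higher in 9 and lower in 1. *Esr1* and *Cited1* were each higher in 8 and lower in 3. Areg-rich cells with a UMI made up 43.8% for *Wnt4*, 38.2% for *Pgr* and 25.8% for *Esr1*, against 1.07%, 0.537% and 3.38% of the other cells. Areg-rich cells were deeper, at a median of 12995 UMIs against 8662. After thinning to 2500 UMIs *Pgr* was found in 24.7% of them against 0.272%.

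Other members of the family differed in the same cells. *Hbegf* was at 1.46 UMIs per 10000 in Areg-rich cells against 0.246 (higher in 10 of 11 tumors), and *Erbb3* was at 0.979 against 0.537 (higher in 10 of 11). *Egfr* was at 0.151 (0.0892 to 0.238) against 0.325 and was lower in 9 of 11 tumors. *Erbb4* had 0 UMIs in the 89 cells, which allows up to 0.0251 per 10000 (3 UMIs), below its 0.0403 in the other cells. Of 4 squamous and keratin genes, *Sprr1a* was at 6.06 against 0.153 and *Cst6* at 18.8 against 0.0531, with 88.1% and 97.8% of those UMIs from 1 tumor. *Klk6* was at 3.43 against 0.165 (higher in 6 of 11 tumors, 37.1% of its UMIs from 1) and *Krt17* at 2.11 against 0.167 (higher in 7 of 11, 47.2% from 1).

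Read the other way, cells with a UMI of *Pgr* or *Esr1* numbered 555, or 4.01% of epithelial-like cells, and held 66.9% of the *Areg* UMIs. The pooled *Areg* level was 1.94 UMIs per 10000 in them and 0.0525 in the other cells. In isotype tumors it was 0.947 in cells with *Pgr* or *Esr1* and 0.0321 in the others, and in B20-4.1.1 tumors 2.98 and 0.0800. The levels in cells with *Pgr* or *Esr1* rested on 1 tumor of each group. Tumor 1 of isotype pool 2 held 71.3% of those isotype UMIs, and without it the level was 0.340. Tumor 2 of B20-4.1.1 pool 2 held 56.8% of those B20-4.1.1 UMIs, and without it the level was 1.62 and the pooled level of all tumors 1.24. The share of *Areg* UMIs in such cells ran from 0% to 100% among tumors. These cells made up 3.57% of epithelial-like cells in isotype tumors and 4.68% in B20-4.1.1 tumors, pooled.

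**Figure D5:**
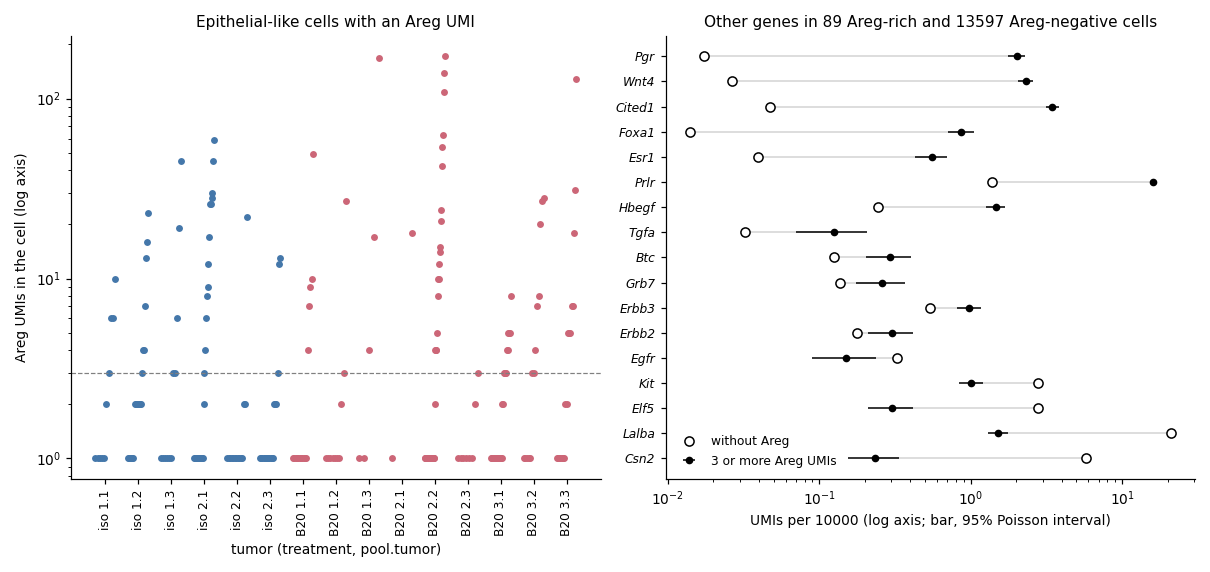
Left, *Areg* UMIs in each epithelial-like cell that has any (log axis), by tumor, with the limit of 3 UMIs dashed. Right, pooled levels (UMIs per 10000, log axis, 95% Poisson intervals) of other genes in 89 Areg-rich and 13597 Areg-negative cells, with *Pgr* at 2.02 against 0.0174 and *Elf5* at 0.301 against 2.80.

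Likeness to *Areg* and *Egfr* was measured as the root mean square difference of log2 CPM profiles over the 15 tumors, each centred on its mean, among 4257 genes with an average log2 CPM of at least 5. The genes nearest to *Areg* were *AW112010* (0.96), *Plk2* (1.13), *Ly6a* (1.15), *Krt19* (1.16) and *Wfdc2* (1.16), where the spread of *Areg* itself was 1.51. None was a close match. Among the genes nearest to *Egfr* were *Samd4b* (0.14), *Ago2* (0.14), *Egr1* (0.16) and *Hs2st1* (0.16), against a spread of *Egfr* of 0.35. *Krt19* is one of the markers that defined the epithelial-like class. Profiles of the same tumors share their depth and their pools.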

How the data were processed

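Single-cell 3′ RNA was analysed in 15 MMTV-PyMT tumors, 6 isotype and 9 B20-4.1.1, a number that differs from the study's own count of tumors. The deposited files hold raw UMI counts per gene and cell for each tumor, made by the authors with Cell Ranger 6.1.2 (file headers) from 3′ CellPlex libraries against mm10. bcl2fastq and Seurat 4.3.0 are named in the submitters' processing notes. No normalization had been applied. Groups came from the treatment labels, and tumors of a pool from their oligonucleotides. The study describes low- and high-hypoxia B20-4.1.1 tumors and a house-keeping gene filter, which were not used here.

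Cells within the UMI window of the study's methods, from 2500, and with at most 20% mitochondrial UMIs were kept, which removed 10107 cells below the window, 375 above it and 325 by the mitochondrial limit. No doublet caller was run, and the UMI maximum and the removal of 940 cells with markers of more than 1 class stood in for it. Levels are UMIs of a gene per 10000 gene UMIs. Counts were summed per tumor and class for tumors with at least 20 such cells and tested in edgeR 4.0.16 (TMM, filterByExpr, quasi-likelihood test, two-sided), with Benjamini-Hochberg adjustment over all genes tested. Comparisons within tumors had the tumor as a fixed block. SEs are the fold change divided by the t value that its p implies. The code was tested on simulated data with known changes. Depth per tumor limits the precision of the low genes most.

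The genes and all lists were chosen with earlier results of these data known. All 10 genes are named, with up to 4 called genes per pathway list by largest change and the 5 genes nearest to *Areg* and to *Egfr*. A few genes that this rule or the lists cover are not reported here. *Areg*-rich cells, the lists compared in them and the cells with *Pgr* or *Esr1* were chosen after values had been seen. Alternatives were DESeq2 1.42.0, its size factors, voom in limma 3.58.1 with the pool as a random block, sums per pool, other filters, gates and cuts, thinned cells, and each pool left out.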

Additional observations from a re-analysis of the deposited data

Results flagged for a closer look

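In 18 groups of tumors tested for a value far from the rest (9 genes by 2 treatments, epithelial-like cells), 3 met Dixon's 95% limit, where chance gives about 1 in 20. *Areg* in isotype tumors was highest in tumor 1 of pool 2, at 0.192 UMIs per 10000, with a gap to the next tumor of 0.690 of the group's range. *Areg* in B20-4.1.1 tumors was highest in tumor 2 of pool 2, at 1.15, with a gap of 0.526. *Erbb2* in B20-4.1.1 tumors was highest in tumor 1 of pool 2, at 0.363, with a gap of 0.597, from 78 epithelial-like cells.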

How the results depend on the processing

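Of 424 values of single genes of the family under the alternatives, 374 kept their direction and their side of the threshold, 25 fell below it, 6 rose above it and 19 changed sign. The 424 include the comparisons of epithelial-like with macrophage-like and T-like cells, where every value was among the 374. They also include the difference between the treatment effects in epithelial-like and macrophage-like cells. The 374 are therefore no measure of how stable the treatment calls are. *Grb7* passed in 15 of its 16 alternatives for treatment in epithelial-like cells. *Hbegf* failed in 7 of 16, the 2 analyses by pool among them (0.88, adjusted p = 0.176, with the pool as a random block, and 0.83, adjusted p = 0.391, with sums per pool), and *Erbb4* in 4 of 15 (adjusted p = 0.148 and 0.457 in the same analyses). *Areg* passed in 3 of 16, with DESeq2 (0.0314), with thinned cells (0.0418) and without isotype pool 2. The number of the 9 genes called was 3. It was 1 with the pool as a random block, where the correlation within pools was 0.536, and 0 with sums per pool. It ranged from 1 to 5 with 1 pool left out. Over all genes the count went from 1808 to 44 (33 higher) with the random block, 0 with sums per pool, 398 without isotype pool 1, 5447 without isotype pool 2, 1053 and 1043 without B20-4.1.1 pools 2 and 3, and 993 with thinned cells. Counts in macrophage-like cells ran from 0 to 556, against 4, and in T-like cells from 0 to 333, against 1. In the comparisons with the other classes the genes of the family were tested only through their epithelial-like counts, so these calls are no support for a direction. With thinned cells, for which fewer genes were tested, the genes of the family called were 1 of 3 in basal-keratin-high cells and 3 of 6 in cycling cells. They were 2 of 2 against macrophage-like and 4 of 4 against T-like cells, where the same limit holds. The share of all genes called with thinned cells is not given here, so these counts have no level to be read against.

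Sign changes were of values that had not passed in the main test, and their cause was not tested. With each pool left out in turn, the treatment value in epithelial-like cells ran from -0.25 to 0.12 for *Tgfa*, with 0.0012 without B20-4.1.1 pool 1, from -0.46 to 0.13 for *Egfr*, from -0.011 to 0.40 for *Erbb2* and from -0.13 to 0.033 for *Erbb3*. *Tgfa* was 0.065 with the random block and 0.050 without cycling cells, and *Btc* -0.0081 with thinned cells. In basal-keratin-high cells the ranges were -0.022 to 0.27 for *Btc* and -0.061 to 0.17 for *Erbb2*, which was -0.028 with no filter and -0.40 with a stricter limit. For the difference between the effects in epithelial-like and macrophage-like cells they were -0.051 to 5.14 for *Btc*, -0.95 to 1.12 for *Egfr*, with 0.0029 without isotype pool 2, -4.35 to 0.20 for *Erbb2* and -0.62 to 1.71 for *Erbb3*, and with thinned cells *Egfr* was 0.12 and *Erbb3* -0.30. The genes of the family entered this difference only through their epithelial-like counts, so these ranges are no support for a direction. Over all genes the number called for this difference ran from 0 to 44, against 10. The stricter keratin limit left 970 of all genes called and thinning 1235, against 2967. Thinning left 2174 of 5285 in cycling cells and 4160 of 7449 against macrophage-like cells, and no filter gave 11193 there.

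No paired analysis was possible because the numbers in the labels name pools and oligonucleotides, and no number ties an isotype tumor to a B20-4.1.1 tumor. Depth limits *Ereg*, *Erbb4* and *Tgfa* outside epithelial-like cells.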

Other observations

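*Areg* was also found in a few T-like cells. Of 2709 T-like cells, 19 from 8 tumors held its 50 UMIs, at most 11 in 1 cell. *Foxp3*, which marks regulatory T cells, was found in 4 of the 19 (21.1%) and in 1.60% of the other T-like cells. *Ctla4* was found in 42.1% against 6.91%, and *Il1rl1*, the interleukin 33 receptor, in 15.8% against 0.967%. *Cd8a* was found in 5.26% against 35.9%, and the epithelial keratin *Krt8* in 0 of 19 against 11.6%. Median depth was 4927 against 4078 UMIs. These genes were chosen after values had been seen, and the comparison, in 19 cells pooled over tumors, was not tested. For *Krt8*, 0 of 19 allows a share of up to 15.8% (3 counts of the total), which is above the 11.6%.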
